A study of Mus musculus with 12 samples.

Results

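The 58 replication-dependent histone genes described here are the rows of the deposited count table whose symbol starts with Hist and a digit and which held at least 10 counts in 2 or more of the 12 columns. They were taken from 68 rows with such a symbol and 24391 rows in all. By protein type, 6 encode the linker histone H1, 14 encode H2a, 17 encode H2b, 10 encode H3 and 11 encode H4. By gene cluster, 48 belong to Hist1 on chromosome 13, 6 to Hist2 on chromosome 3, 3 to Hist3 on chromosome 11 and 1, Hist4h4, to chromosome 6, as RefSeq places them on GRCm38.p6. The threshold used the counts alone, and all 58 genes held at least 10 counts in all 12 columns. Just inside it by their second-highest count were Hist2h2be with 97, Hist1h2an with 155 and Hist1h2bm with 277. Just outside it was Hist1h4n, with 1 count in 1 column, while the other 9 rows left out had 0 in each column. All 58 passed the filter on low counts, which left 17115 genes for testing.

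Replication-dependent histone genes supply the proteins that wrap newly copied DNA, so their RNA accumulates in S phase and falls when DNA synthesis ends. H2a, H2b, H3 and H4 form the nucleosome core, and H1 binds the linker DNA between nucleosomes. Most of these genes lack introns and sit in clusters, and their mRNAs end in a conserved stem-loop in place of a poly(A) tail. Stem-loop binding protein and the U7 small nuclear ribonucleoprotein make that end, so libraries that depend on a poly(A) tail recover such RNA poorly. Embryonic stem cells cycle fast with a large share of cells in S phase. Several genes of the set depart from this description: Hist1h1t encodes the testis linker histone, Hist1h2aa and Hist1h2ba encode the testis forms of H2a and H2b, and Hist3h2bb-ps is annotated as a pseudogene.

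RNA came from 4 female mouse embryonic stem cell (mESC) lines, crosses of C57BL/6J-129/SvJ with Mus musculus castaneus, each of which carried 1 copy of an OHT-inducible Cre at Rosa26 (Rs26+/CreERT). Lines 5.3 and 5.16 were Rif1+/+ (WT, replicates 1 and 2), and lines 15.10 and 16.9 were Rif1F/F (replicates 3 and 4). Each line gave 3 libraries: one before deletion, from mESC not given 4-hydroxytamoxifen (OHT), one from mESC treated with OHT for 2 days, and one from 2-day embryoid bodies (EB) formed after that treatment. WT lines were given OHT like the Rif1F/F lines. The Rif1F/F libraries are called F/F before OHT and KO after it, which gives 6 groups of 2 libraries. The mESC medium held serum, leukemia inhibitory factor, the MEK inhibitor PD0325901 and the GSK3 inhibitor CHIR99021. Each genotype rests on 2 lines, so genotype and any other difference between these pairs of lines cannot be told apart inside one condition. The first part of the description label, which reads like a flow cell code, was the same within a condition and differed between conditions, so run and condition cannot be told apart. In bulk RNA, fewer cells in S phase and less histone RNA per cell cannot be told apart either.

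Total counts per library lay between 28600870 and 64808897. RIF1 is a chromatin protein that sets replication timing, and Rif1 itself was checked first. Levels are given in CPM, a gene's counts scaled to a common library size. Rif1 stood at 1537 and 1751 CPM in WT and 1172 and 1172 in F/F before OHT, 1605 and 1455 in WT and 702 and 661 in KO mESC, and 1382 and 1342 in WT and 789 and 845 in KO EB. Both floxed lines lay under both WT lines in each condition, before deletion included, with log2 fold changes of -0.49 ± 0.08 (adjusted p = 7.4e-05), -1.17 ± 0.08 (adjusted p = 4.4e-09) and -0.74 ± 0.08 (adjusted p = 6.7e-07) in that order. Reads from the exons left in place by Cre still count as Rif1. Here and below, ± after a log2 fold change is its standard error, and each adjusted p comes from the quasi-likelihood test of edgeR. Pluripotency genes (10 of 10 tested) summed to between 5163 and 6975 CPM in mESC and between 2159 and 2413 CPM in EB, whereas 7 formative epiblast genes summed to between 221 and 334 CPM in mESC and 1442 and 2787 CPM in EB. Of 16 feeder fibroblast markers, 12 were tested, and Col1a2, Col3a1, Postn, Dcn, Lum, S100a4 and Twist2 were at 0 in at least 1 library. Other markers of this list were high in mESC, with Fn1 between 2098 and 3284 CPM and Col5a1 between 68.4 and 111 CPM. Col1a2 differed by line, with at most 0.0164 CPM in WT mESC and 0.860 to 1.20 CPM in F/F and KO mESC.

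The sequence that defines the family is the stem-loop at the mRNA's 3′ end, shown here because it takes the place of a poly(A) tail in these RNAs. GENCODE M21 transcripts were searched for its 16 bases, with some bases of the stem and loop allowed to vary. A match was found in 36 of the 58 genes, against 51 of 55341 gene symbols in the whole transcript file (0.0922%). The matches in the 36 genes had the 6 spellings below. In the letters below, which are written as DNA, capitals mark the 2 arms of the stem and lower case marks the loop.
Stem-loop of 20 genes of the H1, H2a, H2b and H3 types: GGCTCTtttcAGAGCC
Stem-loop of 6 genes, Hist1h1t among them: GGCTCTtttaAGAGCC
Stem-loop of 1 H2a gene: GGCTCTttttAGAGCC
Stem-loop of 5 H4 genes, Hist1h4h and Hist4h4 among them: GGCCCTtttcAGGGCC
Stem-loop of 2 H4 genes: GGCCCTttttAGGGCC
Stem-loop of 2 further H4 genes: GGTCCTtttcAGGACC
The 9 H4 matches had 2 stem spellings of their own, and the 27 matches of the other types shared 1 stem. The match lay within 100 bases of the annotated transcript end in 16 genes, at 100 to 300 bases in 4 and over 300 bases before the end in 16, so the annotation also holds longer transcripts of these genes. Whether those longer transcripts were present in these libraries was not tested, since the table gives 1 count per gene.

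Promoters are shown for 4 genes whose RNA levels recur below, as the 250 bases before the annotated RefSeq start on GRCm38.p6, with searched motifs in capitals. The motifs, searched on both strands, were TATAAA (the TATA box), CCAAT (bound by NF-Y), ATTTGCAT (the octamer bound by OCT1, encoded by Pou2f1), AAACACA (a box known from H1 promoters) and GGTCC (the core of the H4 subtype element).
Hist1h1b (chr13:21780626-21780875, minus strand): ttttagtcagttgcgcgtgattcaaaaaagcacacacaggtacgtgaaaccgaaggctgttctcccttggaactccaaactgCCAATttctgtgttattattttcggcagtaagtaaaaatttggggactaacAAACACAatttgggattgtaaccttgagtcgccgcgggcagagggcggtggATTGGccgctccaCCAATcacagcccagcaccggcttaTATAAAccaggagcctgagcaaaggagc
Hist1h2ba (chr13:23934157-23934406, minus strand): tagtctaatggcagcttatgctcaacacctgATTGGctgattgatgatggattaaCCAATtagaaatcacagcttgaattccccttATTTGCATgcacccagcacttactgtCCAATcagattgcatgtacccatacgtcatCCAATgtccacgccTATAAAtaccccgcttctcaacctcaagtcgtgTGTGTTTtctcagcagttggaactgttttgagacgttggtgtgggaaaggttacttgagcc
Hist3h2ba (chr11:58948661-58948910, plus strand): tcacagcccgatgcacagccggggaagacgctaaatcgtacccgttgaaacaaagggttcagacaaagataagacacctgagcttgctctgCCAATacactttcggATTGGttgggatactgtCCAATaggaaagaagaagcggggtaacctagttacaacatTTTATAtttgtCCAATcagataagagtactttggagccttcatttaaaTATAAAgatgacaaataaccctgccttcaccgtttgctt
Hist4h4 (chr6:136804432-136804681, minus strand): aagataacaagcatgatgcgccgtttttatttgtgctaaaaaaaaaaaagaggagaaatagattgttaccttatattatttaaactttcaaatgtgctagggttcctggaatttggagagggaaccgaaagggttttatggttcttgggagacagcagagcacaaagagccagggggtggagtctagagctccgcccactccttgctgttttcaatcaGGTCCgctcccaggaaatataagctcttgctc
Counted back from the start, Hist1h1b has its TATA box at 28 bases, CCAAT at 53, 66 and 168 bases and the AAACACA box at 117 bases. Hist1h2ba has CCAAT at 108, 138, 195 and 219 bases and the octamer at 164 bases, and Hist3h2ba has CCAAT at 76, 127, 144 and 159 bases. The Hist1h2ba window lies within the 281 bases between the starts of Hist1h2ba and Hist1h2aa, which are read away from each other, so these letters precede both genes. Hist4h4 has neither CCAAT nor TATAAA in its window and has GGTCC at 32 bases.

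Of the 58 genes, 51 had a single RefSeq promoter window, and the motifs were divided among them by histone type. CCAAT was present in all 41 windows of H1, H2a, H2b and H3 genes but in 3 of 10 of the H4 genes, against 33.8% of all 32544 promoters of the same length. GGTCC showed the opposite division, with 9 of 10 H4 windows against 39.7% of all promoters and 1 of 6 H1 windows. ATTTGCAT was found in 7 of 14 H2a and 6 of 13 H2b windows and in no H1, H3 or H4 window, against 1.62% of all promoters. AAACACA was found in 5 of 6 H1 windows against 6.26% of all promoters. TATAAA was found in 27 of the 51 windows (52.9%) against 12.3% of all. In 8 pairs of an H2a and an H2b gene read away from each other, the starts lie 164 to 281 bases apart. Their windows therefore overlap, and 1 site can count for both genes. The ATTTGCAT of Hist1h2aa and Hist1h2ba is such a shared site. A match is a description of the letters and not of a bound site.

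Near-identical copies limit what a count of one histone gene means. Of all 50-base words in a gene's transcripts, a median of 43.5% over the 58 genes also occurred in another gene, 22 genes shared over 50%, and Hist1h3h shared 93.9%. Only Hist1h1a, Hist1h1b, Hist1h1t and Hist2h2be shared none. The 10 rows left out shared between 63.5% and 100% of their words with other genes, so a count of 0 there does not show that the gene was silent. The sources used here do not give how the authors' counting divided or dropped such reads, and values of single genes with a high share are uncertain in that respect.

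Summed over the 58 genes, histone RNA had its lowest group mean in WT mESC after OHT and its highest in KO EB. The lowest place rests on WT mESC replicate 1. Replicate 2 alone, at 4832 CPM, lay above the mean of 4739 CPM in WT before OHT. The sums were 4488 and 4989 CPM in the 2 WT and 5130.1 and 5704 CPM in the 2 F/F libraries before OHT, 3150.3 and 4832 in WT and 6507 and 7526 in KO mESC after OHT, and 7053 and 7552 in WT and 8543 and 7974 in KO EB. In this sum over all 58 genes, the Rif1F/F lines lay above WT in each condition without overlap between the libraries. The ratios of the group means were 1.14 before OHT, 1.76 after OHT and 1.13 in EB. Against WT mESC replicate 2 alone, the ratio after OHT was 1.45. This sum counts reads and is not corrected for gene length, and it covered 0.297% to 0.873% of a library's counts. Not each type or cluster shared the separation. The H2b sums in EB overlapped, at 1242 and 1525 CPM in WT and 1521 and 1431 CPM in KO. The H4 sums in EB overlapped too, at 2263 and 2336 CPM in WT and 2455 and 2176 CPM in KO. Before OHT the H2b sums overlapped, at 948 and 1053 CPM in WT and 994 and 1079 CPM in F/F, as did the Hist2 sums.

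**Figure D1:**
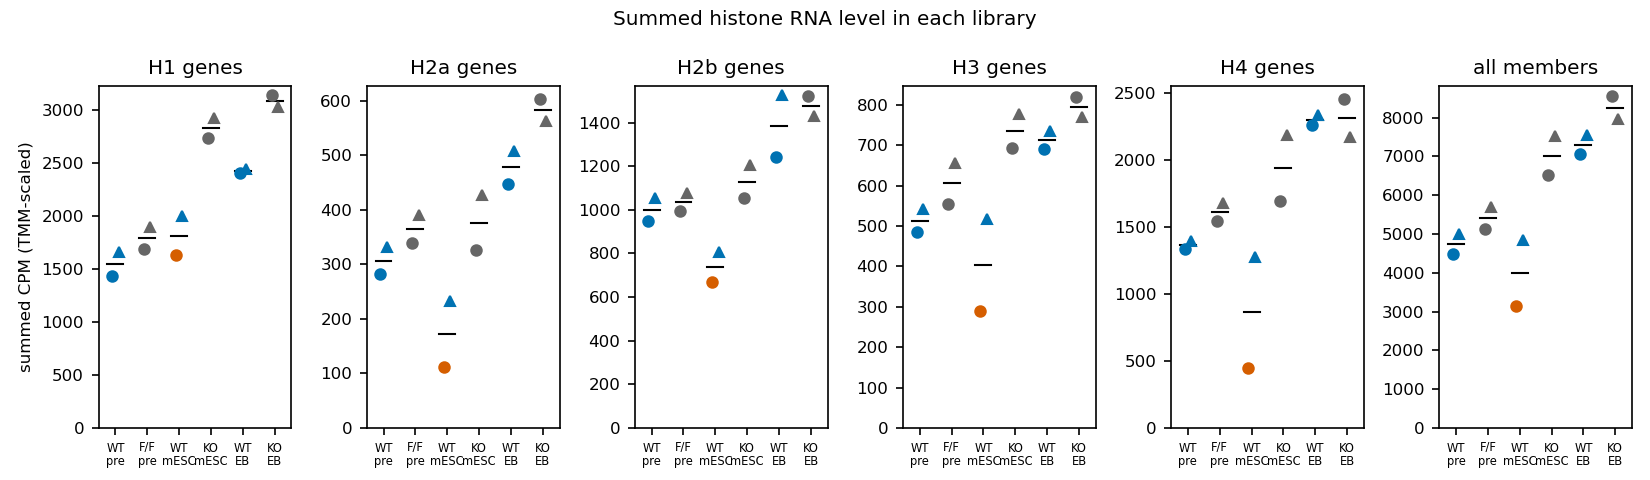
Summed CPM (TMM-scaled, linear axis) of the H1, H2a, H2b, H3, H4 and all 58 genes in each library, by group (pre, before OHT; mESC and EB, after OHT), with circles for replicates 1 and 3, triangles for replicates 2 and 4, blue for WT, grey for F/F and KO, orange for WT mESC replicate 1 and bars for group means. WT mESC replicate 1 lies at 450 CPM for H4 against 1275 CPM in replicate 2, and at 3150 against 4832 CPM for all 58 genes.

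One library has to be set apart before the comparisons. WT mESC replicate 1 had 12.7 CPM as the median over the 58 genes, against 31.0 CPM in replicate 2 and 35.9 to 67.3 CPM in the other 10 libraries. Its level was the lowest of the 4 mESC libraries after OHT in 55 of the 58 genes, against 28.5% of all genes tested, and under 0.8 times that of replicate 2 in 49 genes, against 14.6% of all genes. The reduction differed by type, with a median ratio of replicate 1 to replicate 2 of 0.341 over H4, 0.474 over H2b, 0.487 over H2a, 0.615 over H3 and 0.890 over H1 genes. Some genes did not share it: the ratio was 0.993 for Hist1h1a, 1.02 for Hist1h2bb, 1.07 for Hist2h2bb and 1.16 for Hist1h1t. H4 genes made up 14.3% of the histone CPM in this library, against 26.0% to 32.1% in the other 11. The next ratios of replicate 1 to replicate 2 cover only genes with a mean level of at least 5 CPM. Other genes with a median transcript length of up to 500 bases had a median ratio of 0.990 over 270 genes. It was 0.470 over the 23 histone genes in that range. Other genes with a GC content over 60% had a median ratio of 0.768 over 358 genes, against 0.481 over 20 histone genes.

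The same library differed in a few other RNAs as well. Lars2, a mitochondrial leucyl-tRNA synthetase gene, held 0.869% of its counts against at most 0.140% in each other library. Of 17 tested genes for RNA without a poly(A) tail other than histone mRNA, 7 were under 0.8 times replicate 2. Rmrp, the RNA of RNase MRP, stood at 1979 and 3849.9 CPM in replicates 1 and 2, and Rpph1, the RNA of RNase P, at 3243 and 8277. The part that RNA quality or library preparation had in this was not tested. Comparisons of the 58 genes that use WT mESC after OHT are therefore given with and without this library.

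**Figure D2:**
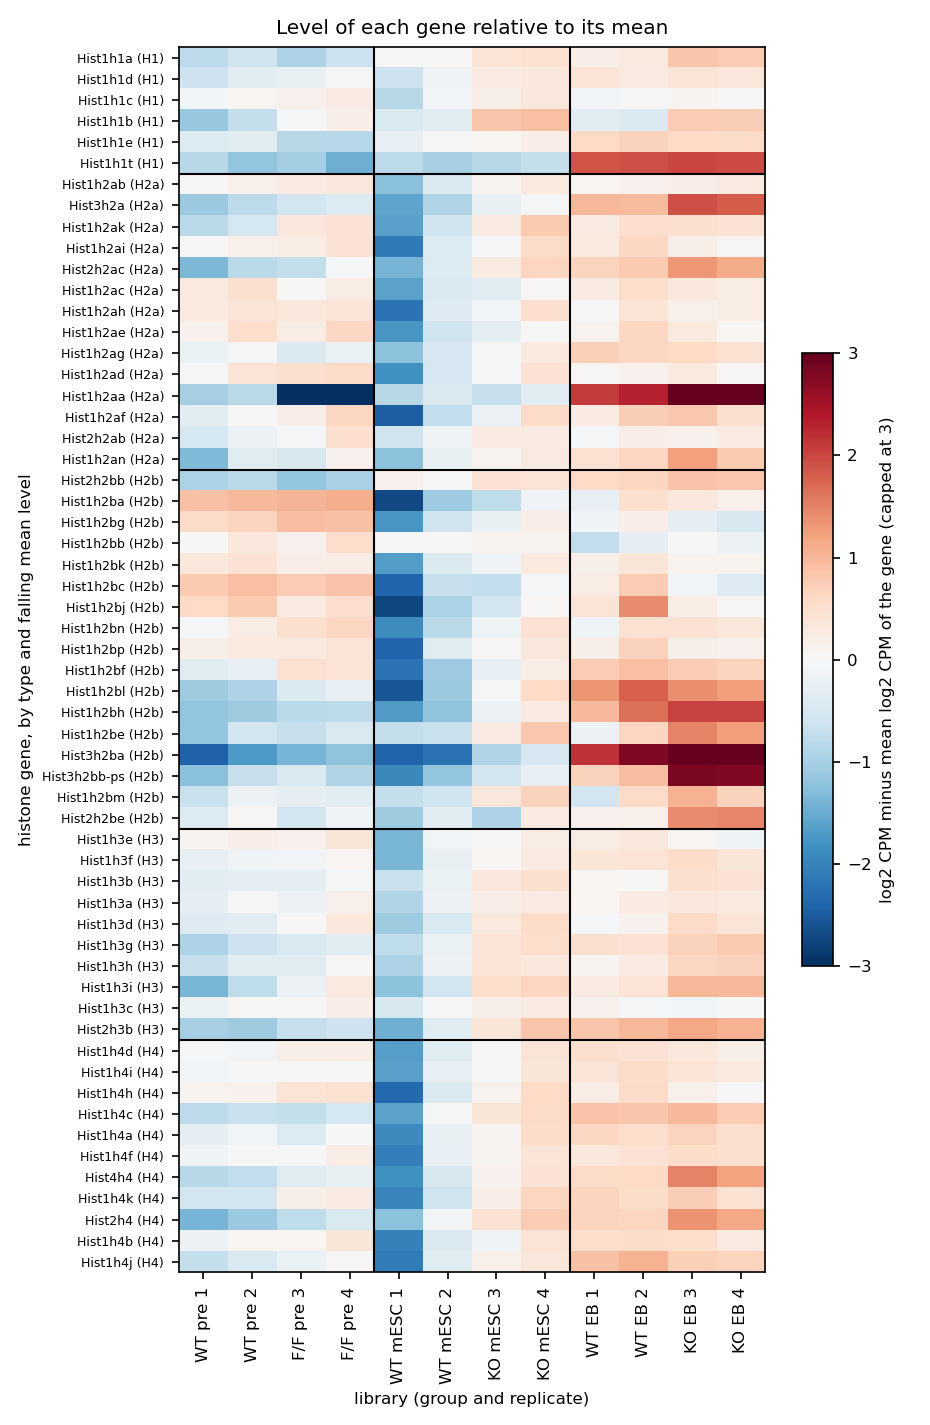
Each row is 1 of the 58 histone genes, grouped by type and ordered by falling mean level, each column is 1 library, and the colour is log2 CPM minus the gene's mean log2 CPM, limited to 3 in either direction. The column of WT mESC replicate 1 is blue for most H2a, H2b and H4 genes, and Hist1h1t, Hist1h2aa, Hist3h2a and Hist3h2ba are red in the 4 EB columns.

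Levels per kilobase of RefSeq transcript, averaged over the 12 libraries, gave the order of genes within each type. Among linker histones, Hist1h1a led with 899 CPM per kb, ahead of Hist1h1c with 643, Hist1h1d with 637, Hist1h1b with 451 and Hist1h1e with 327, and the testis gene Hist1h1t had 11.8. Among H2a genes Hist1h2ab was first with 118, followed by Hist3h2a with 108, and Hist1h2an was last with 5.80. The H2b genes had the widest range, from 981 for Hist2h2bb to 0.525 for Hist2h2be, whose RefSeq transcript has 2667 bases. The H3 genes lay between 173 for Hist1h3b and 37.5 for Hist2h3b, and the H4 genes between 932 for Hist1h4d and 118 for Hist1h4j. Hist1h2bc, Hist1h2be and Hist1h2bp have a RefSeq length over the limit of 3000 bases set for this order and were left out of it. Differences between neighbours in this order were not tested.

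The comparison of KO with WT mESC after OHT asked how histone RNA stood once Rif1 had been deleted in cycling stem cells. With all libraries, 54 of the 58 genes were higher in KO and none was lower, against 19.8% of all genes tested called higher and 18.6% called lower, and the median log2 fold change was 1.11. Without WT mESC replicate 1 the count was 45 higher and 0 lower (15% and 12.4% of all genes), all 45 of them among the 54, and the median was 0.63. Without replicate 2 instead, the median was 1.73. By type, 5 of 6 H1, 13 of 14 H2a, 15 of 17 H2b, 10 of 10 H3 and 11 of 11 H4 genes were higher, and without replicate 1 these counts were 4, 9, 13, 8 and 11. In 51 of the 58 genes the 4 libraries stood in the order WT replicate 1, WT replicate 2, KO replicate 3, KO replicate 4. The share of all genes with this order was not counted. WT replicate 1 was the lowest of the 4 in 55 of the 58 genes, against 28.5% of all genes tested.

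Hist1h1b, the gene of linker histone H1.5, had the smallest adjusted p among linker histones. Its levels were 236 and 257 CPM in WT and 577 and 609 CPM in KO mESC, and both KO libraries lay far above both WT libraries. The log2 fold change was 1.27 ± 0.10 (adjusted p = 6.8e-08), and 1.22 (adjusted p = 2.3e-07) without WT replicate 1. Hist1h1a, the linker histone H1.1 gene, stood at 620.3 and 624 CPM in WT, where replicates 1 and 2 were nearly equal, and at 825 and 854 CPM in KO. That was a log2 fold change of 0.43 ± 0.08 (adjusted p = 0.00062), and of 0.44 (adjusted p = 0.0023) without replicate 1. Hist1h1e was 202 and 235 CPM in WT and 251 and 275 CPM in KO, for a log2 fold change of 0.27 ± 0.07 (adjusted p = 0.0079) whose call ended on leaving out KO replicate 4, at 0.20 (adjusted p = 0.12), or WT replicate 1, at 0.18 (adjusted p = 0.094).

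Among core histone genes, Hist3h2a, an H2a gene outside the main cluster, stood at 13.4 and 21.5 CPM in WT and 34.2 and 38.3 CPM in KO mESC. The groups did not overlap, and the log2 fold change was 1.06 ± 0.15 (adjusted p = 4e-05), or 0.77 (adjusted p = 5.3e-05) without WT replicate 1. Its neighbour Hist3h2ba, an H2b gene, was near the lower end of detection, with 0.508 and 0.578 CPM in WT and 1.42 and 1.88 CPM in KO. Its log2 fold change was 1.61 ± 0.30 (adjusted p = 0.00046), or 1.53 (adjusted p = 0.004) without WT replicate 1. Hist1h3i, an H3 gene, was 11.9 and 18.9 CPM in WT and 40.5 and 43.4 CPM in KO, with no overlap and a log2 fold change of 1.45 ± 0.19 (adjusted p = 1.5e-05), or 1.16 (adjusted p = 4.7e-05) without WT replicate 1. The largest fitted difference was that of the H2b gene Hist1h2bl, with 2.05 and 5.63 CPM in WT and 11.8 and 18.5 CPM in KO and a log2 fold change of 2.01 ± 0.29 (adjusted p = 4.7e-05). It was 1.45 (adjusted p = 3.8e-05) without WT replicate 1, and 82.8% of its 50-base words occur in other genes.

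The H4 genes were the type with the lowest ratio of WT replicate 1 to replicate 2. Hist1h4h was 37.6 and 142 CPM in WT and 206 and 289 CPM in KO mESC, and its log2 fold change fell from 1.46 ± 0.34 (adjusted p = 0.0028) to 0.82 (adjusted p = 0.0002) without WT replicate 1, against 2.72 without replicate 2. Hist4h4 was 30.6 and 77.1 CPM in WT and 117 and 147 CPM in KO, and its log2 fold change of 1.30 ± 0.25 (adjusted p = 0.00053) was 0.79 (adjusted p = 3.5e-05) without replicate 1 and 2.11 without replicate 2. Hist1h4i, with 75.3 and 197 CPM in WT and 231 and 300.002 CPM in KO, had a log2 fold change of 0.97 ± 0.25 (adjusted p = 0.0061), which fell to 0.77 (adjusted p = 0.073) on leaving out KO replicate 4. It was 0.45 (adjusted p = 0.0046) without WT replicate 1 and 1.82 without WT replicate 2. In each of these 3 genes the 2 KO libraries lay above both WT libraries. Hist1h2bb, Hist1h1t, Hist1h2aa and Hist2h2be did not pass the test, with log2 fold changes of 0.11, 0.12, 0.13 and 0.48, or 0.14, 0.25, -0.05 and 0.17 without WT replicate 1. Without KO mESC replicate 4 the count over all types was 37 higher and 0 lower.

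**Figure D3:**
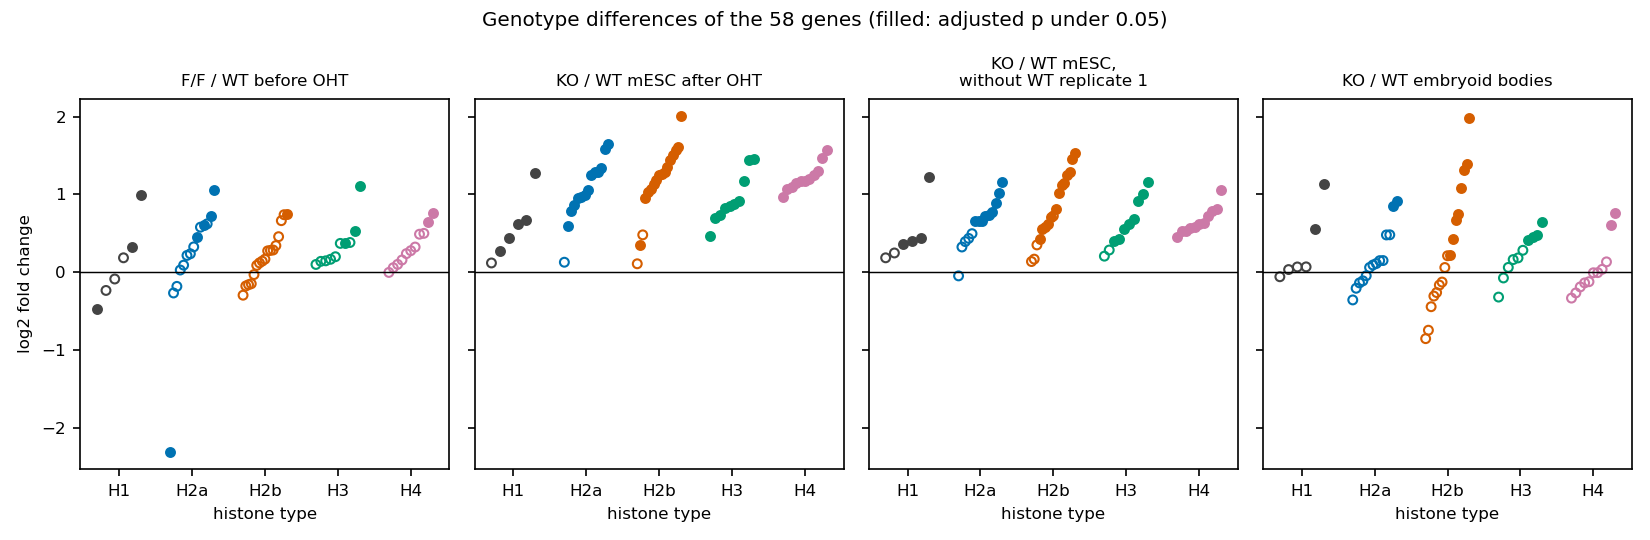
Log2 fold changes of the 58 genes (points, ordered within each type) for F/F against WT before OHT, KO against WT mESC with all libraries and without WT replicate 1, and KO against WT EB, where filled points have an adjusted p under 0.05. In mESC after OHT the points lie above 0 with all libraries (median 1.11) and sit lower without WT replicate 1 (median 0.63), while in EB they lie on both sides of 0 (median 0.08).

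In EB fewer histone genes passed the test between the genotypes. Of the 58 genes, 18 were higher in KO and 0 were lower, against 20.7% of all genes called higher and 19.7% called lower, and the median log2 fold change was 0.08. The share of histone genes called higher, 31.0%, was nearer to that background than the 93.1% in mESC. By cluster, 3 of 3 Hist3 genes, 3 of 6 Hist2 genes, the 1 Hist4 gene and 11 of 48 Hist1 genes were higher. WT mESC replicate 1 enters this comparison only through the shared spread, the scaling and the filter. Without it the fold changes hardly moved (median 0.09) and 20 genes were called higher, the 18 among them, and 7 lower (22.3% and 19.8% of all genes), and without WT mESC replicate 2 the counts were 20 and 8. The count of higher genes was 10 without KO EB replicate 3, and 9, with 1 lower, without WT EB replicate 1.

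The Hist3 cluster had the largest median log2 fold change of the 4 clusters in EB, 1.39. Summed over its 3 genes, the level was 97.0 and 102 CPM in WT and 217 and 204 CPM in KO EB, against at most 42.9 CPM in each mESC library. Hist3h2a stood at 79.6 and 77.3 CPM in WT and 152 and 142 CPM in KO EB, without overlap, a log2 fold change of 0.91 ± 0.14 (adjusted p = 6.4e-05). Hist3h2ba stood at 12.03 and 18.4 CPM in WT and 41.4 and 39.0 CPM in KO EB, a log2 fold change of 1.39 ± 0.16 (adjusted p = 2.8e-06). Hist3h2bb-ps, the annotated pseudogene, had 5.31 and 6.30 CPM in WT and 23.4 and 22.8 CPM in KO EB and the largest genotype difference of the 58 genes in EB, 1.99 ± 0.19 (adjusted p = 2.6e-07). All 3 genes were also higher in KO mESC after OHT, and only Hist3h2a passed the test before OHT.

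Other genes higher in KO EB came from each type. Hist1h1b stood at 254 and 241 CPM in WT and 551 and 538 CPM in KO, for a log2 fold change of 1.14 ± 0.10 (adjusted p = 1.6e-07), and Hist1h1a at 710.1 and 758 CPM and 1099 and 1052 CPM, a log2 fold change of 0.55 ± 0.08 (adjusted p = 5.2e-05). The other 4 linker histone genes had log2 fold changes between -0.06 and 0.07 and did not pass the test. Hist1h2aa, the testis H2a gene, was 27.4 and 31.9 CPM in WT and 55.3 and 51.3 CPM in KO, for a log2 fold change of 0.84 ± 0.12 (adjusted p = 3.7e-05), and the groups did not overlap. Hist2h2be, an H2b gene known to make a polyadenylated mRNA as well, was low in all libraries and had 1.30 and 1.32 CPM in WT and 3.202 and 3.33 CPM in KO, for a log2 fold change of 1.31 ± 0.31 (adjusted p = 0.0025). Hist4h4 had 161 and 164 CPM in WT and 303 and 251 CPM in KO, and its log2 fold change of 0.76 ± 0.24 (adjusted p = 0.017) lost its call without WT EB replicate 1, at 0.77 (adjusted p = 0.079), without WT EB replicate 2, at 0.79 (adjusted p = 0.071), and without KO EB replicate 3, at 0.62 (adjusted p = 0.13). It was 0.78 (adjusted p = 8.1e-07) without WT mESC replicate 1.

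The 7 genes called lower in KO EB without WT mESC replicate 1 all belonged to Hist1. Hist1h2bj, an H2b gene, had 56.5 and 116 CPM in WT and 50.4 and 44.8 CPM in KO EB, and both KO values lay below both WT values. Its log2 fold change was -0.86 ± 0.35 (adjusted p = 0.062), and -0.84 (adjusted p = 0.0023) without WT mESC replicate 1. Hist1h2bc had 68.6 and 100.7 CPM in WT and 56.0 and 44.8 CPM in KO EB, likewise without overlap, and a log2 fold change of -0.75 ± 0.32 (adjusted p = 0.071), or -0.73 (adjusted p = 0.00075) without WT mESC replicate 1. In both genes WT EB replicate 2 was well above WT EB replicate 1. Hist1h2bg, Hist1h3e and Hist1h4h were also among the 7 genes called lower without WT mESC replicate 1, at -0.43 (adjusted p = 0.0027), -0.31 (adjusted p = 0.0072) and -0.32 (adjusted p = 0.027).

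Before OHT, when neither pair of lines had been treated, the share of histone genes called higher in F/F was close to that of all genes, and the share called lower was smaller. Of the 58, 12 were higher and 2 lower in F/F, against 19.9% and 17.5% of all genes, and the median log2 fold change was 0.24. Without WT mESC replicate 1, which enters only through the shared spread, the scaling and the filter, 24 were higher and 2 lower (21.2% and 17.9% of all genes), and the counts were the same without WT mESC replicate 2. Leaving out WT replicate 1 or F/F replicate 4 of this condition left 3 higher with 3 lower and 4 higher with 3 lower. Hist1h1b stood at 148 and 197 CPM in WT and 313 and 371 CPM in F/F, without overlap, a log2 fold change of 0.99 ± 0.10 (adjusted p = 1.1e-06). Hist1h3i was 10.8 and 16.6 CPM in WT and 24.6 and 34.4 CPM in F/F, a log2 fold change of 1.11 ± 0.20 (adjusted p = 0.00026), and Hist1h2ak, an H2a gene, 18.4 and 22.4 CPM and 40.9 and 43.4 CPM, a log2 fold change of 1.05 ± 0.22 (adjusted p = 0.0011). Hist1h1b, Hist1h3d, Hist1h3i, Hist2h4 and Hist3h2a were called higher in the floxed lines in all 3 conditions, against 4.97% of all genes tested, and 31 of the 58 genes had a positive genotype difference in all 3, against 21.1% of all genes tested. Of these 5, Hist1h3d was named after its values were seen.

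Hist1h2aa was the clearest exception before OHT. It had 3.24 and 3.68 CPM in WT and 0.782 and 0.603 CPM in F/F, a log2 fold change of -2.32 ± 0.23 (adjusted p = 5.1e-07), and both F/F values lay below both WT values. After OHT the groups overlapped, at 3.64 and 4.80 CPM in WT and 4.00 and 5.15 CPM in KO mESC. Hist1h1e, a somatic linker histone gene, was the other gene lower in F/F, with 182 and 191 CPM in WT and 136 and 133 CPM in F/F and a log2 fold change of -0.48 ± 0.07 (adjusted p = 8.5e-05).

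The difference between the genotype effects after and before OHT was tested directly, since the lines differed at the start. It was positive and called in 9 genes and called negative in 0, against 4.07% and 3.79% of all genes, with a median of 0.82 over the 58 genes. Without WT mESC replicate 1 it was called in 7 genes, all among the 9 (2.86% of all genes positive and 1.86% negative), and the median was 0.39. With the cell line as a block, which takes out each line's own level, 35 genes were called positive and 0 negative, against 4.28% and 3.31% of all genes, the 9 among them. The largest was that of Hist1h2aa, 2.44 ± 0.28 (adjusted p = 7e-05), or 2.26 (adjusted p = 3.4e-05) without WT mESC replicate 1. Hist1h1e had 0.75 ± 0.10 (adjusted p = 0.00035), or 0.65 (adjusted p = 0.00056) without that library, and Hist2h2bb 0.53 ± 0.10 (adjusted p = 0.0053), or 0.59 (adjusted p = 0.0034). For Hist1h1b, higher in the floxed lines throughout, the difference between the effects was 0.28 ± 0.15 (adjusted p = 0.25), or 0.23 without that library. The count fell to 5 without WT replicate 2 before OHT and to 4 without KO mESC replicate 4, and rose to 49 without WT mESC replicate 2.

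From mESC to EB, most histone genes rose in WT and fewer passed the test in KO, and the difference between the changes was tested too. In WT, 54 genes rose and 1 fell, against 32.5% and 29.8% of all genes, and the median log2 fold change was 1.29. Without WT mESC replicate 1, 48 rose and 1 fell (27.2% and 28.3%), all of them among the former, and the median was 0.78. It was 2.05 without WT mESC replicate 2. With the cell line as a block, 56 rose and 1 fell in WT (32% and 29.3%). In KO, 17 genes rose and 0 fell, against 31.4% and 27.6% of all genes, with a median of 0.29. With the cell line as a block, 24 rose and 0 fell in KO (30.8% and 27.2% of all genes). Leaving out WT mESC replicate 1, which belongs to neither KO group, gave 26 rising and 4 falling genes (30% and 30% of all genes), leaving out WT mESC replicate 2 gave 28 and 4, and leaving out KO mESC replicate 3 gave 11 and 0. The 2 changes share no library, and their difference was called negative in 35 genes and positive in 1, against 13.7% and 14.8% of all genes, with a median of -0.84. Without WT mESC replicate 1 it was negative in 23 and positive in 2 (10.6% and 11.3%), with a median of -0.47, and without KO mESC replicate 4 negative in 11 and positive in 2. It was negative in 17 and positive in 2 genes without WT EB replicate 2, negative in 22 without KO EB replicate 3, and negative in 17 and positive in 1 without KO EB replicate 4.

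**Figure D4:**
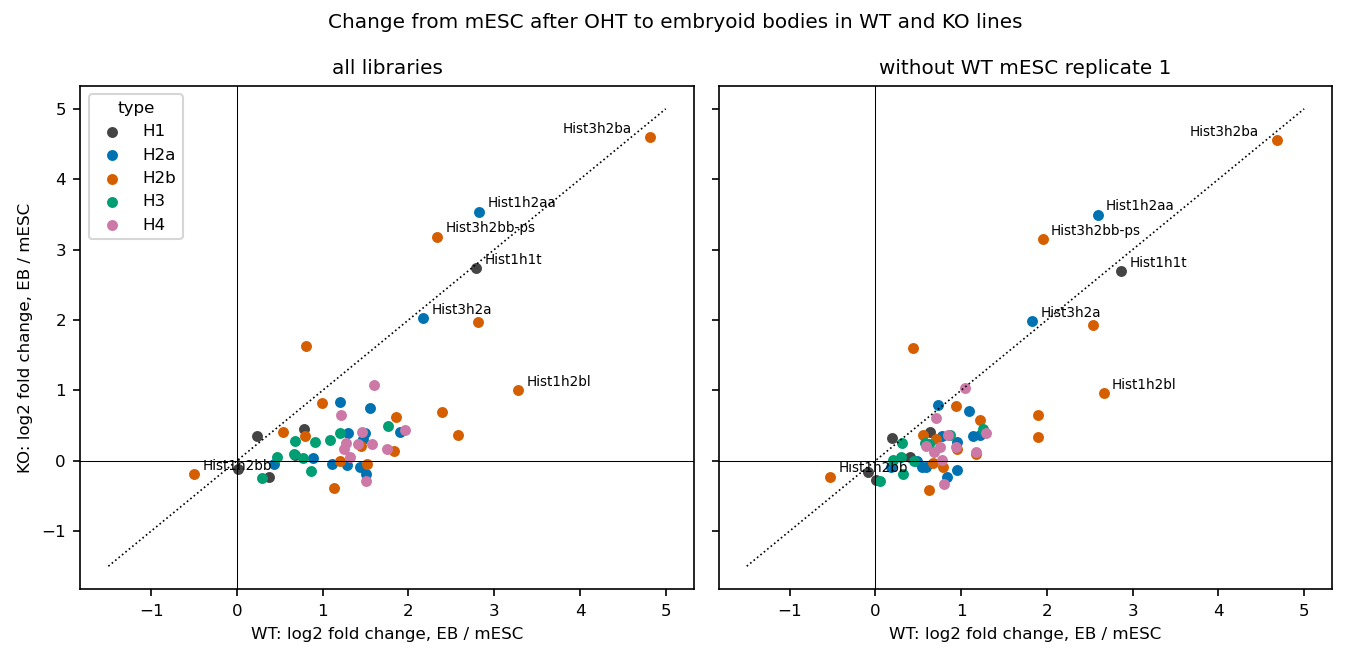
Log2 fold change from mESC after OHT to EB in WT (horizontal axis) and KO (vertical axis) for the 58 genes, coloured by type, with all libraries (left) and without WT mESC replicate 1 (right), where the dotted line marks equal change. Most genes lie right of 0 and near 0 on the vertical axis (medians 1.29 in WT and 0.29 in KO with all libraries), and Hist3h2ba lies at 4.81 and 4.60.

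The largest rises in both genotypes included those of Hist3h2ba and the testis-type genes Hist1h1t and Hist1h2aa. Hist3h2ba went from 0.508 and 0.578 CPM in WT mESC to 12.03 and 18.4 CPM in WT EB, a log2 fold change of 4.81 ± 0.23 (adjusted p = 6.9e-12), and from 1.42 and 1.88 CPM in KO mESC to 41.4 and 39.0 CPM in KO EB, 4.60 ± 0.21 (adjusted p = 4.2e-12). Hist1h1t rose from 3.10 and 2.68 to 19.6 and 20.5 CPM in WT and from 3.01 and 3.27 to 21.3 and 20.7 CPM in KO, log2 fold changes of 2.79 ± 0.15 (adjusted p = 2.8e-11) and 2.74 ± 0.16 (adjusted p = 8.5e-11). Hist1h2aa rose from 3.64 and 4.80 to 27.4 and 31.9 CPM in WT, 2.82 ± 0.14 (adjusted p = 1.3e-11), and from 4.00 and 5.15 to 55.3 and 51.3 CPM in KO, 3.54 ± 0.15 (adjusted p = 1.4e-12). Both testis-type genes were thus about equally low in the mESC libraries of the 2 genotypes after OHT and clearly higher in each EB library. Hist1h2bh, an H2b gene, rose by 2.81 ± 0.20 (adjusted p = 1.3e-09) in WT and by 1.96 ± 0.19 (adjusted p = 7.7e-08) in KO, from 3.195 and 4.51 CPM and 9.29 and 12.4 CPM to 20.4 and 33.0 CPM and 42.2 and 42.8 CPM. Hist3h2bb-ps rose from 0.868 and 1.46 to 5.31 and 6.30 CPM in WT, 2.33 ± 0.23 (adjusted p = 9e-08), and from 2.25 and 2.80 to 23.4 and 22.8 CPM in KO, 3.19 ± 0.21 (adjusted p = 6.4e-10). Other genes with low mESC levels had smaller changes: Hist2h2be went from 0.574 and 0.944 to 1.30 and 1.32 CPM in WT and Hist1h2bm from 2.77 and 2.99 to 3.06 and 6.79 CPM. Leaving out WT mESC replicate 1 gave WT changes of 4.68 for Hist3h2ba, 2.86 for Hist1h1t, 2.59 for Hist1h2aa, 2.53 for Hist1h2bh and 1.95 for Hist3h2bb-ps. None of the rises of Hist3h2ba, Hist1h1t, Hist1h2aa, Hist1h2bh and Hist3h2bb-ps lost its call or moved by over 1.5 times when a single library was left out.

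**Figure D5:**
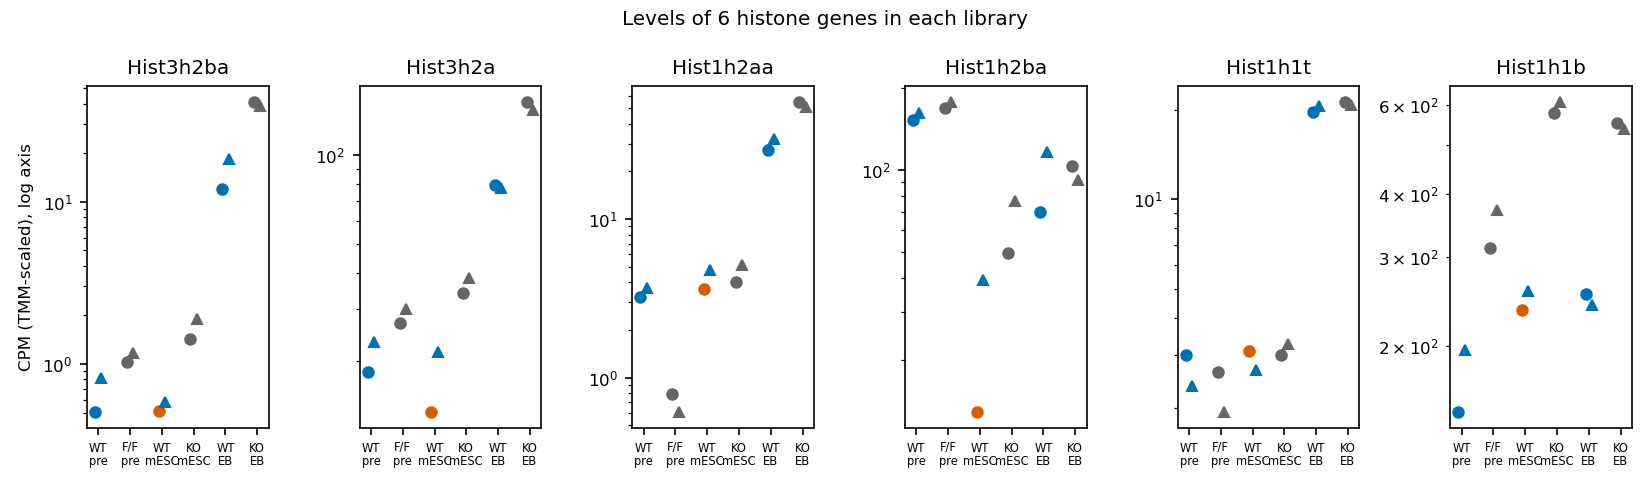
CPM (TMM-scaled, log axis, different range in each panel) of Hist3h2ba, Hist3h2a, Hist1h2aa, Hist1h2ba, Hist1h1t and Hist1h1b in each library, with circles for replicates 1 and 3, triangles for replicates 2 and 4, blue for WT, grey for F/F and KO and orange for WT mESC replicate 1. Hist1h1b is higher in the floxed lines in every condition, while Hist1h1t lies between 1.93 and 3.27 CPM in all mESC libraries and between 19.6 and 21.3 CPM in EB.

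Hist1h1b did not pass the test for this change in either genotype. Hist1h1b stood at 236 and 257 CPM in WT mESC and 254 and 241 CPM in WT EB, overlapping groups with a log2 fold change of 0.01 ± 0.10 (adjusted p = 0.95), or -0.09 without WT mESC replicate 1, and its change in KO was -0.12 ± 0.10 (adjusted p = 0.32). Hist1h1e rose in both, from 202 and 235 to 364 and 386 CPM in WT, 0.78 ± 0.07 (adjusted p = 6.6e-08), or 0.64 without that library, and from 251 and 275 to 362 and 357 CPM in KO, 0.45 ± 0.07 (adjusted p = 5.3e-05). Hist1h2bb was the 1 gene that fell in WT, from 83.7 and 82.3 to 49.9 and 67.2 CPM, -0.50 ± 0.13 (adjusted p = 0.0029), or -0.53 without WT mESC replicate 1, and it lost its call without WT EB replicate 1, at -0.34 (adjusted p = 0.0525), and was -0.77 without WT EB replicate 2. Its difference from KO EB, 0.42 ± 0.13 (adjusted p = 0.017), was not called without WT EB replicate 1, at 0.24 (adjusted p = 0.22), or without KO EB replicate 3, at 0.32 (adjusted p = 0.16), and was 0.67 without WT EB replicate 2. Among H2b genes with a large difference between the genotypes' changes, Hist1h2bl went from 2.05 and 5.63 to 30.6 and 42.5 CPM in WT and from 11.8 and 18.5 to 31.9 and 29.0 CPM in KO. That difference was -2.27 ± 0.39 (adjusted p = 0.00036), and -1.70 (adjusted p = 8.6e-05) without WT mESC replicate 1.

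Before against after OHT, the WT lines show what the set did without any floxed allele, although run and condition cannot be told apart here. In WT, 5 genes rose and 24 fell, against 24.9% and 24.2% of all genes, with a median log2 fold change of -0.41, and without WT mESC replicate 1, 13 rose and 17 fell (20.6% and 17.4%), with a median of -0.072. In the Rif1F/F lines 19 rose and 3 fell, against 22.1% and 21.5% of all genes, with a median of 0.23, and with the cell line as a block 22 rose and 7 fell (21.6% and 20.6%). The count in the Rif1F/F lines was 11 rising and 3 falling without KO mESC replicate 4. Without WT mESC replicate 1 it was 27 and 6. Hist2h2bb, the H2b gene with the highest level per kilobase, rose in both, from 223 and 248 to 469 and 438 CPM in WT, 0.95 ± 0.07 (adjusted p = 1.5e-07), and from 195 and 221 to 582 and 577 CPM in Rif1F/F lines, 1.48 ± 0.08 (adjusted p = 1.3e-09). Hist1h1a rose likewise, from 359 and 411 to 620.3 and 624 CPM in WT, 0.69 ± 0.08 (adjusted p = 7.1e-06), and from 329 and 395 to 825 and 854 CPM, 1.21 ± 0.08 (adjusted p = 2.7e-08). The WT changes without WT mESC replicate 1 were 0.91 for Hist2h2bb and 0.72 for Hist1h1a.

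Hist1h2ba, the testis H2b gene, moved the other way. It had 153 and 162 CPM in WT and 169 and 178 CPM in F/F before OHT, 12.8 and 39.2 CPM in WT and 49.5 and 76.8 CPM in KO mESC after it, and 70.1 and 117 CPM in WT and 103 and 91.7 CPM in KO EB. Each of the 4 libraries before OHT lay above the other 8. Its log2 fold change from before to after OHT was -2.61 ± 0.33 (adjusted p = 1e-05) in WT, or -1.99 (adjusted p = 1.5e-06) without WT mESC replicate 1, and -1.46 ± 0.32 (adjusted p = 0.0014) in the Rif1F/F lines. Hist1h2aa, whose start lies 281 bases from that of Hist1h2ba on the other strand, had changes of 0.28 ± 0.16 (adjusted p = 0.17) in WT, or 0.49 without that library, and 2.72 ± 0.22 (adjusted p = 1.4e-07) in the Rif1F/F lines over the same steps. The H2b genes Hist1h2bc and Hist1h2bg fell in WT, with log2 fold changes of -2.16 and -1.69, or -1.52 and -1.21 without WT mESC replicate 1.

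In all, 8 pairs of the 58 genes, each an H2a and an H2b gene read away from each other, have starts within 600 bases on GRCm38.p6. With all libraries, 58 of 58 genes had a positive fold change in KO against WT mESC and 57 in WT EB against WT mESC, so equal signs of partners there say nothing about pairs. In KO EB against KO mESC, where 45 of the 58 genes were positive, partners had the same sign in 2 of 8 pairs. Their log2 fold changes differed by a median of 0.71, and some lay near 0, such as Hist1h2ah at -0.05 and Hist1h2bk at 0.002. The count was 3 of 8 in the Rif1F/F lines after against before OHT. It was 6 of 8 in KO against WT EB, in F/F against WT before OHT and in WT after against before OHT. The differences between genotype effects had equal signs in 8 of 8 pairs over OHT and 7 of 8 over EB. Hist1h2ba with Hist1h2aa was the pair whose partners differed most before OHT between genotypes, at 0.14 and -2.32.

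Genes that act with the histone genes gave other counts. Of 33 listed S-phase and cell-cycle genes, KO mESC had 6 higher and 17 lower than WT mESC, with a median log2 fold change of -0.19, and 5 were higher and 7 lower without WT mESC replicate 1. The KO EB had 2 higher and 11 lower, and the median was -0.13. Before OHT, F/F already had 4 higher and 8 lower than WT, with a median of -0.096, against 19.9% and 17.5% of all genes. The difference between the genotype effects after and before OHT was positive in 2 and negative in 3 of these genes. That was against 4.07% and 3.79% of all genes, and both counts were 2 without WT mESC replicate 1. Of 26 genes for transcription and 3′ end processing of histone mRNA, such as Npat, Slbp and Lsm11, 3 were higher and 6 lower in KO mESC, or 2 and 3 without WT mESC replicate 1, and 1 was higher and 4 lower in KO EB. Of 20 tested histone chaperone genes, 0 were higher and 5 lower in KO mESC, or 0 and 1 without WT mESC replicate 1. Most replication-independent histone genes make mRNAs with poly(A) tails and are expressed outside S phase too. Of 12 such genes tested, 4 were higher and 3 lower in KO mESC, and 6 higher and 2 lower in KO EB. Their median log2 fold change in KO mESC was 0.163, or 0.161 without WT mESC replicate 1. Before OHT, F/F had 7 higher and 7 lower of the transcription and processing genes. It had 1 higher and 4 lower chaperone genes, and 2 higher and 1 lower replication-independent histone genes. Of all genes tested, 19.8% were called higher and 18.6% lower in KO mESC, and 20.7% higher and 19.7% lower in KO EB. Of the 12 tested feeder markers 5 were higher and 2 lower in KO mESC, or 4 and 1 without WT mESC replicate 1, and their sum of 2504 to 3521 CPM in mESC after OHT was mostly Fn1 RNA.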

How the data were processed

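The authors deposited 1 table of raw read counts per gene symbol with 1 column per library, and all 12 columns were used. Per the submitters' processing notes, BWA, HTSeq, DESeq2 and the mm9 genome were used, with no version or role given. The annotation, the strand setting and whether poly(A) RNA was selected are not given in the sources used here. Selection by poly(A) tail and the treatment of reads that fit several histone genes both bear on these counts.

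CPM were computed with TMM-scaled totals. The quasi-likelihood test of edgeR 4.0.16 in R 4.3.3 was fitted to the 17115 genes kept by filterByExpr, with 1 mean for each of the 6 groups and Benjamini-Hochberg adjustment over all of them at 0.05. The common dispersion had a square root of 0.0717. Nothing in the labels says that libraries of 1 group came from separate animals or derivations beyond the separate lines, so p-values measure the spread between the 2 lines' libraries. The histone genes and the other gene lists were chosen with earlier results of these data known. Named genes were the 3 with the highest mean CPM of each type, all of Hist2, Hist3 and Hist4, and for each of the 9 comparisons the 4 largest called changes in each direction, besides those at the count threshold. The calculation was tested on simulated data.

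Promoters, lengths and current symbols came from RefSeq on GRCm38.p6, which is not the authors' build, and all 58 symbols matched through synonyms. Stem-loops were searched in GENCODE M21 transcripts. Motif and table work used Python 3.11.15 with pandas 2.3.3. Replicate numbers mark the same cell line across conditions. Deviations of same-numbered libraries from their group means correlated between -0.14 and 0.14 in the 6 pairs of groups. The block on cell line could be fitted only for comparisons across conditions, since each line has 1 genotype. Alternatives were DESeq2 1.42.0, totals without TMM, no filter, the block, and each library left out.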

Additional observations from a re-analysis of the deposited data

Results flagged for a closer look

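In all, 9 named genes are listed because the log2 genotype difference was more positive after OHT than before it. The rule was a tested difference of the log2 fold changes with an adjusted p under 0.05 in edgeR's quasi-likelihood test. Among linker histones these were Hist1h1a at 0.52 and Hist1h1e at 0.75. The H2a genes were Hist1h2aa at 2.44, Hist1h2ab at 0.78 and Hist1h2ag at 1.15, and the H2b genes were Hist1h2bh at 1.17, Hist1h2bk at 1.19 and Hist2h2bb at 0.53. The H3 gene Hist1h3b had 0.68, and no H4 gene was among them. For Hist1h2aa the value combines lower levels in F/F than in WT before OHT with overlapping levels after it.

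The change from mESC to EB differed between the genotypes in 23 named genes, given here as the KO change minus the WT change in log2 units. Hist1h2aa alone was positive, at 0.72. The linker histone genes Hist1h1c, Hist1h1d and Hist1h1e had -0.60, -0.59 and -0.33. The H2a genes Hist1h2ab, Hist1h2af, Hist1h2ag and Hist1h2ak had -0.84, -1.496, -1.11 and -1.52. Among H2b genes the values were -1.23 for Hist1h2ba, -1.70 for Hist1h2bc, -1.70 for Hist1h2bf, -1.52 for Hist1h2bg, -0.84 for Hist1h2bh, -2.21 for Hist1h2bj, -1.20 for Hist1h2bk and -2.27 for Hist1h2bl. The H3 genes Hist1h3e, Hist1h3i and Hist2h3b had -1.02, -0.81 and -1.26. The H4 genes Hist1h4d, Hist1h4h, Hist1h4i and Hist1h4k had -1.26, -1.80, -1.09 and -1.58. Both differences use WT mESC replicate 1, and over all 58 genes their medians were 0.82 and -0.84 with that library and 0.39 and -0.47 without it.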

How the results depend on the processing

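No called result changed direction under any alternative run. The number of histone genes called, in either direction, moved by over 1.5 times in several comparisons. Without the low-count filter it was 28 for KO against WT EB, 31 for F/F against WT before OHT, 37 for KO EB against KO mESC, 37 for the Rif1F/F lines after against before OHT, and 48 for the difference between the genotype effects after and before OHT. With DESeq2 it was 7 for F/F against WT before OHT, 17 for WT after against before OHT and 14 for the difference between the genotypes' EB changes. With the cell line as a block it was 35 for the difference between the genotype effects after and before OHT. The block moved no other count by over 1.5 times. The cause of these shifts was not tested.

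Leaving out 1 library at a time gave 37 to 54 called genes for KO against WT mESC (median log2 fold change 0.63 to 1.73), 10 to 28 for KO against WT EB (0.03 to 0.20) and 6 to 26 for F/F against WT before OHT (0.12 to 0.34). It gave 49 to 57 for WT EB against WT mESC (0.78 to 2.05), 11 to 32 for KO EB against KO mESC (0.12 to 0.46), 23 to 42 for WT after against before OHT (-0.98 to -0.072) and 14 to 33 in the Rif1F/F lines (0.10 to 0.42). The differences between genotype effects had 4 to 49 called genes over OHT (0.39 to 1.41) and 13 to 46 over EB (-1.43 to -0.47). Of 315 single-gene calls, 231 held whichever library was left out and 226 held under every alternative. With 2 libraries a group, each arm left with 1 library borrows the spread of the others. Each of the 58 genes had at least 10 counts in each library, and what greater depth would change was not tested.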
